A study of Mus musculus with 12 samples.

Results

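Loss of the transcription factor Ets1, with Ets2 left intact, was described from 6 of the 12 arrays in a series on cultured mouse aortic endothelial cells. The members are the 3 arrays titled as Ets1 null and the 3 titled as wild type for both factors, chosen by their titles, and 11015 genes were described on them. Wild-type cells had the genotype Ets1+/+; Ets2+/+, and Ets1 null cells Ets1-/-; Ets2fl/fl. Both groups came from mice aged 4 weeks and had received a lentivirus carrying egfp without Cre, so Ets2 was not deleted in either. The 2 groups thus differed at both loci, since only the Ets1 null cells had floxed Ets2 alleles, and these differences in genotype cannot be told apart here. The free-text descriptions of the Ets1 null arrays call Ets1 wild type; the titles and genotypes were followed. The arrays are labelled as biological replicates, but no label says whether each came from its own animal, so p-values reflect only the variation among these arrays.

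Ets1 is the founding member of the ETS family of transcription factors, which bind DNA at sites built around a GGAA core. In endothelial cells it is known for roles in angiogenesis, in the expression of matrix proteases and in the response to inflammatory signals. Ets2 is its closest relative and binds much the same sites.

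Values are log2 RMA levels (RMA is a method that combines the probes of a probe set into 1 level), and a gene is read from whichever of its probe sets was brightest on average in the 6 arrays. A difference is Ets1 null minus wild type on the log2 scale, with limma's standard error (SE, n = 3 and 3). Calls were made where the p adjusted by Benjamini-Hochberg over all genes was under 0.05. Groups are said not to overlap where every array of one lay above every array of the other.

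The spread between arrays was uneven. Pearson's r between wild-type arrays 1 and 2 was 0.951 across probe sets, but array 3 had 0.901 and 0.903 with them, and the Ets1 null arrays had 0.949 to 0.980 among themselves. Wild-type array 3 lay 2-fold or more above both other wild-type arrays in 348 genes and below both in 417, together 6.95% of genes, against 3.01% for array 1 and 2.86% for array 2. Ets1 null array 1 stood apart in the same way in 4.13% of genes, against 0.527% for array 2 and 0.790% for array 3. Wild-type array 1 was the only one of the 6 with a Y-linked signal (Eif2s3y at 9.37, against 3.12 to 3.33 in the other 5). Xist, the RNA of the inactive X chromosome, was at 7.26 in that array, at 11.45 in wild-type array 3 and at 13.07 to 13.52 in the remaining 4.

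Of the 42 endothelial markers, 16 were on the table, and Pecam1, Cdh5, Tek, Tie1, Vwf and Erg were not analysed here. Kdr, the main receptor for VEGF-A, lay between 7.11 and 7.60 in the 6 arrays, below the median of all genes in each (9.37 to 9.50). Plvap, a protein of endothelial fenestrae, lay between 8.78 and 10.80, and Eng, a TGF-beta co-receptor of endothelium, between 8.21 and 10.54. Markers of fibroblasts ran from high to low. The fibrillar collagens Col1a1 and Col1a2 lay between 11.93 and 13.33 and between 12.31 and 14.44. Pdgfra lay between 10.53 and 13.31, and S100a4 between 14.28 and 14.64. The proteoglycans Dcn and Lum were low, between 6.34 and 8.15 and between 4.94 and 6.40. Smooth muscle and pericyte markers were mixed as well, with Acta2 between 10.70 and 13.35, Pdgfrb between 11.07 and 11.91 and Des between 7.07 and 7.11. Their part in the results below was not tested.

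Rnf130 was the only gene called, and it fell. It encodes a transmembrane RING-type ubiquitin ligase of the protease-associated domain family. Its level was 10.95, 10.23 and 10.55 in wild-type arrays 1 to 3, against 6.82, 6.85 and 7.34 in the Ets1 null arrays. The lowest wild-type array lay well above the highest Ets1 null array. The difference was -3.58 ± 0.25, a fall of 11.9-fold, with an adjusted p of 0.00185. This 1 call is 0.00908% of the genes tested; 955 genes (8.67%) had an unadjusted p under 0.05. Over all 20523 probe sets, limma called 1 (0.00487%), that of Rnf130, and 1900 (9.26%) had an unadjusted p under 0.05. The call was kept when any 1 of the 6 arrays was left out, with adjusted p from 0.00351 to 0.024. It was lost when only these 6 arrays entered the fit (adjusted p = 0.0582, with the same difference), and then no gene was called by limma, while 1122 genes had an unadjusted p under 0.05.

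The second probe set of Rnf130 did not follow the first. It read 7.47, 7.34 and 7.41 in wild type, against 7.37, 7.25 and 7.32 in Ets1 null, a difference of -0.09 ± 0.14 with overlapping groups. The fall therefore rests on 1 of 2 probe sets. The second was dim already in wild type, below the median of all genes in each array (9.37 to 9.50), so it had less room to show a fall. The position of either on the transcript was not given in the sources used here.

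The 250 bases before the RefSeq start of Rnf130 (GRCm38.p6, chr11:50025081-50025330, plus strand) are shown because it is the only called gene, with each GGAA core, read on either strand as GGAA or TTCC, in capitals. Those of Sema3e (chr5:14025026-14025275, plus strand) and Prelp (chr1:133921402-133921651, minus strand), described below, are shown beside it as the lower gene with the smallest unadjusted p among those read alike by several probe sets, and the higher gene with the smallest unadjusted p.
Rnf130: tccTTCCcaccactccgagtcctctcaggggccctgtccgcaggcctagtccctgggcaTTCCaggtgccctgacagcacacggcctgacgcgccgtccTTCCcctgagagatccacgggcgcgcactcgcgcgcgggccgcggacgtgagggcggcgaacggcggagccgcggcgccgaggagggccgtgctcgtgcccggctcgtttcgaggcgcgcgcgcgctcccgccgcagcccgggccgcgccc
Sema3e: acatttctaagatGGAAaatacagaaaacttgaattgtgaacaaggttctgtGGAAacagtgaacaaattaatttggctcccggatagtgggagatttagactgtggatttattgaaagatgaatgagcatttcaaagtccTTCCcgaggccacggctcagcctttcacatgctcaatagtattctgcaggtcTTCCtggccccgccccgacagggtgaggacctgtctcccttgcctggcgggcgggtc
Prelp: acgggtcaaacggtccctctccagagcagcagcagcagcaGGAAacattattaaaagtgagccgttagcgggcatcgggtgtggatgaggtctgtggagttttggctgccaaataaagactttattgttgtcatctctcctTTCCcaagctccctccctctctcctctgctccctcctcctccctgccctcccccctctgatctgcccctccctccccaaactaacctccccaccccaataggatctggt
The core occurred 3 times before Rnf130, 4 times before Sema3e and 2 times before Prelp. At least 1 core was present in 93.4% of the 32851 promoters of the RefSeq table in windows of the same length, so its presence does not set these 3 apart. The longer forms CCGGAA and GGAAGT, searched on both strands and each holding the core, were in 12% and 19.7% of all promoters and in none of the 3. A match describes the letters only and is not a binding site.

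Ets1 itself was lower in Ets1 null arrays in all 4 of its probe sets, but none was called. The brightest read 10.26, 9.84 and 10.06 in wild type, against 8.31, 8.76 and 9.17 in Ets1 null. The groups did not overlap, and the difference was -1.31 ± 0.23 (adjusted p = 0.182), or 2.48-fold. The other 3 probe sets differed by -1.22, -0.50 and -0.70, each again with groups that did not overlap. Ets1 null array 1 was the lowest of the 6 in each of the 4 probe sets. Whether the probe sets lie in the deleted part of the gene was not given in the sources used here, so a remaining signal checks nothing about the allele. Ets2 read 9.72, 10.01 and 10.70 in wild type, against 10.28, 10.37 and 10.54 in Ets1 null, with overlapping groups and a difference of 0.25 ± 0.38 (adjusted p = 0.879).

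**Figure D1:**
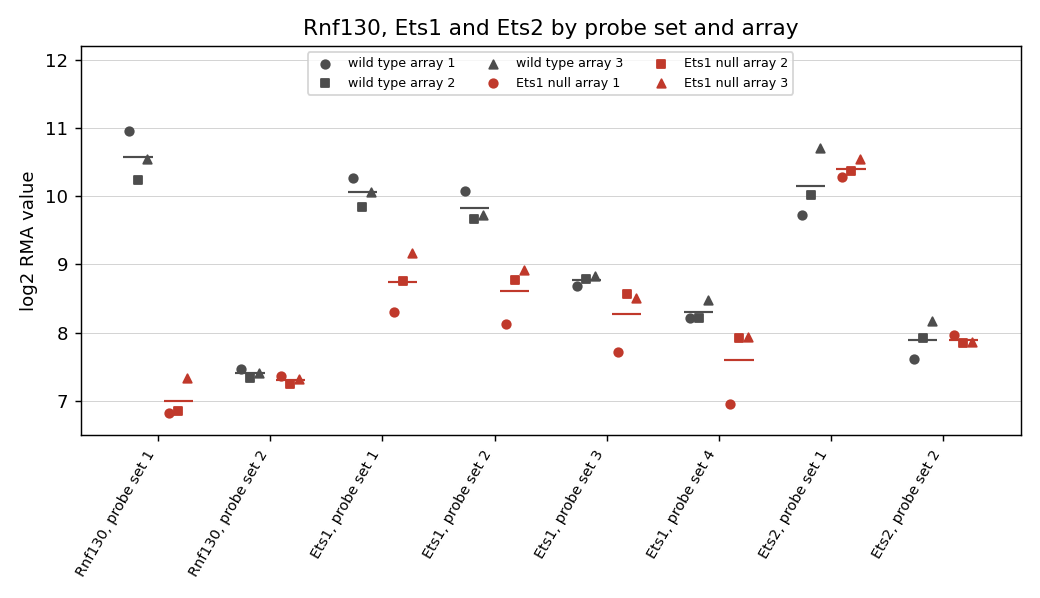
Log2 RMA value (vertical axis) of each probe set of Rnf130, Ets1 and Ets2, numbered from the brightest, in the 3 wild-type (grey) and 3 Ets1 null (red) arrays; short lines are group means. The first probe set of Rnf130 lies between 10.23 and 10.95 in wild type and between 6.82 and 7.34 in Ets1 null, while its second differs by -0.09.

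No gene of the ETS list was called. Of its 15 genes on the table, which include Ets1, Ets2 and Gabpb1, the partner of Gabpa that is no ETS protein, 9 were higher and 6 lower in the mean, and the median difference was 0.03 beside 0.01 over all genes. Etv4, a PEA3-group member, had groups that did not overlap (10.12, 10.03 and 10 against 10.96, 10.57 and 10.28; 0.56 ± 0.45), as had Elk3, Erf and Elf4 at differences of -0.15, -0.20 and 0.14. Gabpa, the ETS subunit of the GABP complex, differed by -0.24 ± 0.17 with overlapping groups.

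In the mean, 5746 genes (52.2%) were higher and 5269 (47.8%) lower in Ets1 null. Below the call, 978 genes (8.88%) were higher and 1009 (9.16%) lower in Ets1 null with groups that did not overlap. Of these, 110 (0.999%) were higher and 160 (1.45%) lower by 2-fold or more, and 61 (0.554%) and 49 (0.445%) of them were also bright, with a mean in the brighter group above the median of all genes. The 12 bright genes of each direction with the smallest unadjusted p are described next; apart from Rnf130 none passed the adjusted threshold, and their values are a description.

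Among the higher genes, Prelp, a leucine-rich proteoglycan of the extracellular matrix, read 7.87, 7.97 and 7.45 in wild type, against 10.99, 10.12 and 9.62 in Ets1 null (2.48 ± 0.30, adjusted p = 0.068). Rhoj read 10.18, 10.64 and 10.02 against 11.67, 11.64 and 11.32 (1.27 ± 0.18, adjusted p = 0.0759). In both genes the groups stood clear of each other. Id2, a dominant-negative helix-loop-helix protein, read 9.18, 9.83 and 9.81 against 11.79, 10.99 and 10.54 (1.5 ± 0.33). Mtm1, the phosphoinositide phosphatase myotubularin, had the widest gap of the 12, with 6.28, 6.68 and 7.64 against 9.83, 10.71 and 11.01 (3.65 ± 0.76, adjusted p = 0.281). The remaining 8 were Cdo1 (2.16), Ptpn13 (2.34), Nexn (1.74), Cercam (1.71), Ociad2 (1.39), Pkp4 (1.31), Plcd3 (1.28) and Acbd4 (1.04). Cdo1 encodes cysteine dioxygenase, Nexn an actin-binding protein and Ptpn13 a large tyrosine phosphatase.

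Among the lower genes, Nsg1, a small endosomal membrane protein, read 10.20, 10.03 and 9.98 in wild type, against 8.38, 9.02 and 8.85 in Ets1 null (-1.32 ± 0.17, adjusted p = 0.068). Sirpa, the inhibitory receptor for CD47, read 10.16, 10.07 and 10.34 against 9.07, 8.14 and 8.12 (-1.75 ± 0.25, adjusted p = 0.0837). Angptl4, a secreted inhibitor of lipoprotein lipase, read 12.06, 11.39 and 12.87 against 9.33, 8.56 and 8.88 (-3.19 ± 0.49). All wild-type arrays of these 3 genes lay above all Ets1 null arrays. Grb10, an imprinted adaptor that dampens insulin signalling, had the largest difference of the 24, -5.63 ± 0.99, but its wild-type arrays spread from 9.82 to 12.75 against 5.01 to 6.09, its second probe set differed by -2.45, and the mean of its probe sets by -3.08. Thbd, thrombomodulin, the endothelial receptor through which thrombin activates protein C, read 11.19, 8.78 and 10.37 against 5.29, 5.12 and 4.78 (-5.05 ± 0.97, adjusted p = 0.22). Its Ets1 null arrays lay close together, and its wild-type arrays were spread widely above them. The others were Nfkbiz (-1.83), Zc3hav1 (-2.10), Pdzrn3 (-1.19), Tmem45a (-3.12), Rpgrip1 (-2.86) and Ets1.

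**Figure D2:**
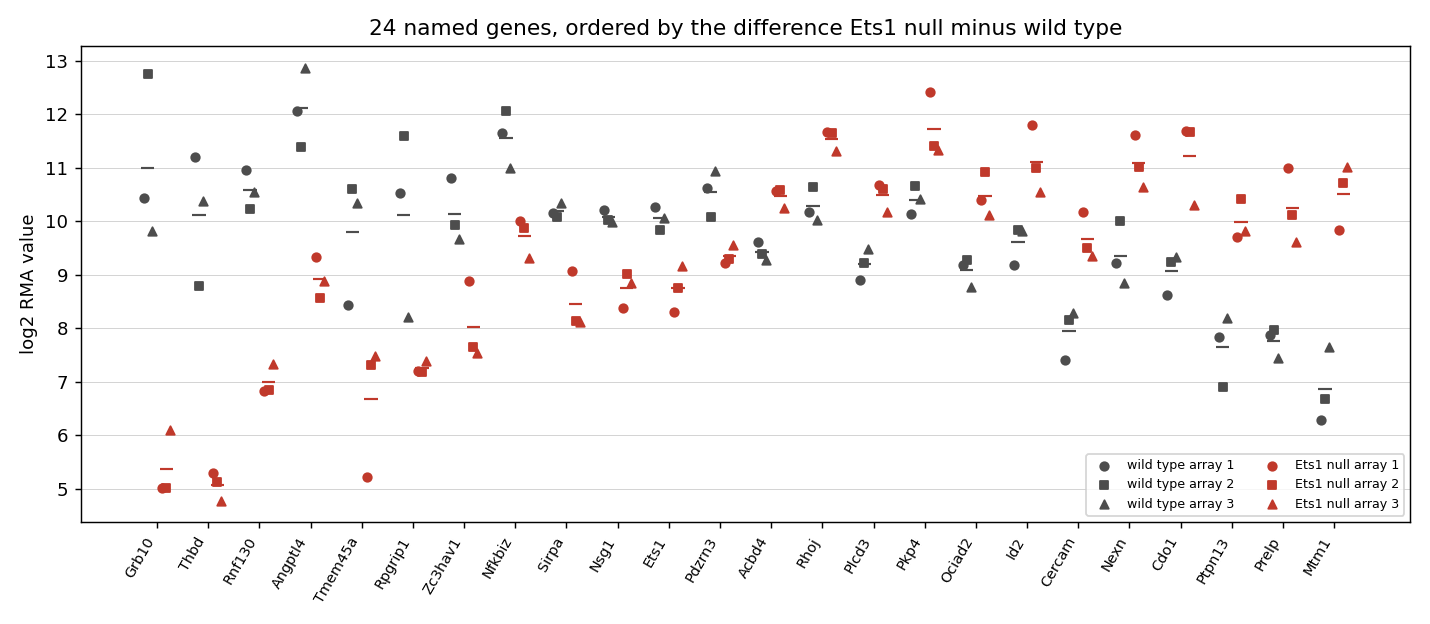
Log2 RMA value (vertical axis) of the 24 genes chosen by unadjusted p among bright genes with groups that do not overlap, in the 3 wild-type (grey) and 3 Ets1 null (red) arrays, ordered by their difference; short lines are group means. Grb10, Thbd, Tmem45a and Rpgrip1 combine large differences with a wide wild-type spread, while Nsg1, Sirpa and Rhoj differ by less with a narrow one.

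A second probe set gave a partial check that the choice of the first did not use, on the same 6 arrays. Of the 24 genes, 12 had one; in 12 of 12 its difference had the same sign (for Rnf130 by -0.09 only), and in 11 its groups did not overlap the same way. Over all 4785 genes with several probe sets, both probe sets had groups that did not overlap the same way in 272 (5.68%, higher) and 205 (4.28%, lower), and in opposite ways in 7 (0.146%). These shares set no condition on the first probe set, by which the 24 genes were chosen, so they are not a like background for the 11. Across these genes, which are not independent replicates, the differences of the brightest and second probe sets correlated with Pearson's r of 0.816.

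By the smaller of the differences of both probe sets, the 8 lower genes were, in order, Fabp4, Sema3e, Trim25, Lpl, Trps1, Cd55, Grb10 and Trabd2b. Sema3e, a secreted guidance cue that repels endothelial cells through plexin D1, read 9.09, 7.77 and 9.80 in wild type, against 5.54, 5.67 and 5.50 in Ets1 null (-3.31 ± 0.46, adjusted p = 0.0759; second probe set -3.70). Plxnd1, its receptor, read 8.86, 8.92 and 9.76 against 10.36, 10.12 and 9.83 (0.92), with groups that did not overlap. Fabp4, the fatty acid binding protein of capillary endothelium and fat cells, read 9.83, 9.43 and 12.82 against 5.43, 8.68 and 7.77 (-3.40 ± 1.31). Lpl, lipoprotein lipase, read 7.10, 7.44 and 12.44 against 5.92, 6.31 and 5.79 (-2.99 ± 1.72). In Fabp4 and Lpl wild-type array 3 was by far the highest, and without it the differences were -2.34 and -1.27. Trps1 differed by -3.43, Cd55, an inhibitor of complement, by -2.51, Trim25 by -2.84 and Trabd2b by -2.44. On the higher side were Igfbp3 (3.01), Anxa8 (2.87), Rab6b (2.92), Mef2c (2.52), Tfpi (2.04), Emb (1.82), Mtm1 and Prelp. Tfpi, the inhibitor of the tissue factor pathway, read 7.92, 10.43 and 7.78 against 10.91, 10.46 and 10.87, so wild-type array 2 nearly reached the Ets1 null arrays. Mef2c, a transcription factor of vascular cells, showed the same order (6.20, 8.73 and 6.10 against 9.45, 9.61 and 9.54); without wild-type array 2, Mef2c and Tfpi were among 8 genes called.

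Genes of NF-kappaB signalling and inflammation were mostly lower in Ets1 null in the mean. Of 24 on the table, 22 (91.7%) were lower beside 47.8% of all genes, and the median difference was -0.80 beside 0.01. In 9 (37.5%) the groups did not overlap, beside 9.16% of all genes, and none was called. Nfkbiz, a nuclear IkB protein that directs secondary NF-kappaB targets, read 11.64, 12.05 and 10.99 against 10, 9.87 and 9.31 (adjusted p = 0.208), and its second probe set differed by -1.81. Bcl3, another nuclear IkB protein, read 9.49, 9.18 and 8.41 against 7.70, 7.28 and 7.78 (-1.44 ± 0.27). Zc3h12a, an RNase that degrades inflammatory mRNAs, read 8.51, 8.44 and 7.16 against 6.67, 6.65 and 6.80 (-1.33 ± 0.32). In Bcl3 and Zc3h12a wild-type array 3 was the wild-type array nearest to the Ets1 null arrays.

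That order recurred through the list. Relative to each gene's mean over the 6 arrays, the median of the list was 0.96, 0.72 and -0.21 in wild-type arrays 1 to 3 and -0.57, -0.36 and -0.18 in the Ets1 null arrays. Wild-type array 3 thus lay between Ets1 null arrays 2 and 3, and without it the median difference of the list was -1.33. Ccl2, the chemokine that recruits monocytes, read 14.19, 12.86 and 8.28 against 6.48, 7.42 and 8.65 (-4.26 ± 1.38), and Lcn2, lipocalin 2, 13.12, 11.59 and 7.98 against 5.94, 5.49 and 9.24. Their groups overlapped through wild-type array 3 and Ets1 null array 3, and without wild-type array 3 Lcn2 differed by -5.46. Vcam1, the adhesion molecule for leukocytes, was higher in the mean (0.94), with wild-type array 3 far below the others (13.09, 13.76 and 8.80 against 13.84, 12.29 and 12.35; -0.60 without that array). Without wild-type array 3, 35 genes were called, 9 higher and 26 lower, among them Ccl2 (-6.01), Ccl5, Bcl3, Relb, Zc3h12a, Sema3e and Rnf130.

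**Figure D3:**
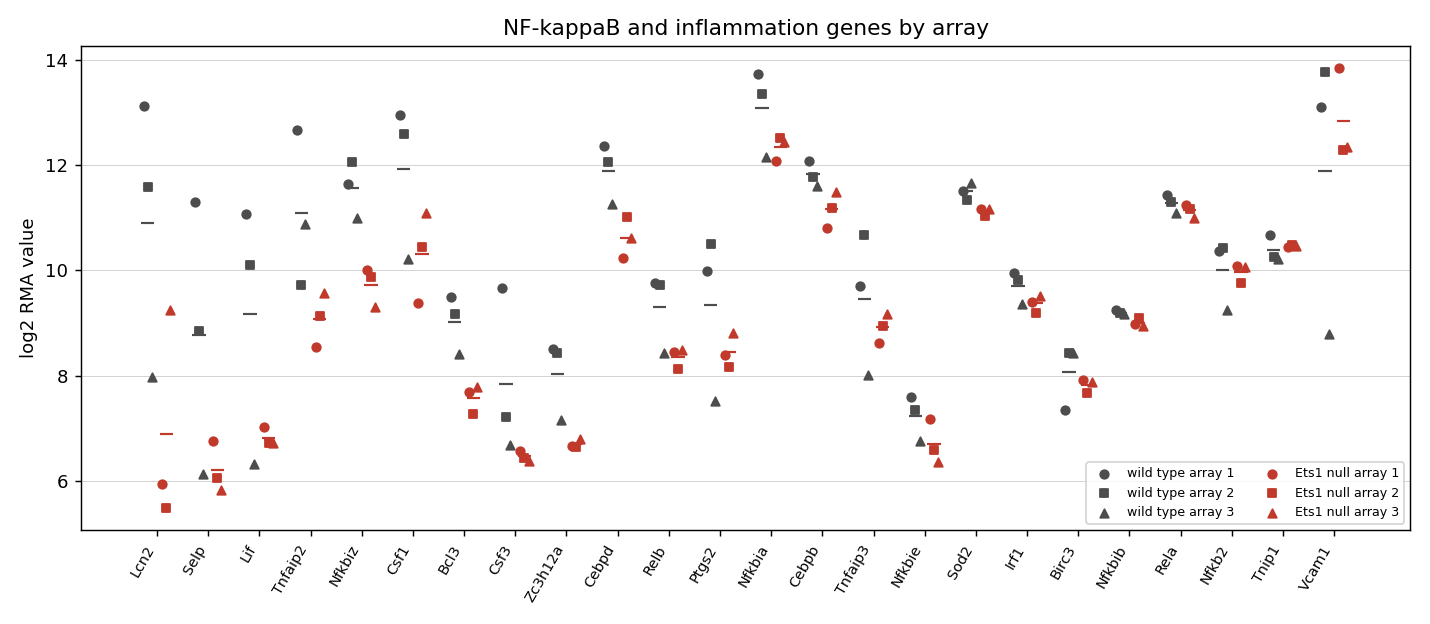
Log2 RMA value (vertical axis) of the 24 genes of the NF-kappaB and inflammation list in the 3 wild-type (grey) and 3 Ets1 null (red) arrays, ordered by their difference; short lines are group means. Wild-type array 3 (grey triangles) lies at or below the highest Ets1 null array in 14 of the 24 genes, as for Lcn2 (7.98), Lif (6.32) and Selp (6.14).

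Chemokines gave 9 of 12 lower, beside 47.8% of all genes, with a median difference of -0.56, and 2 (16.7%, beside 9.16%) lower with groups that did not overlap, Ccl5 (-1.53 ± 0.39) and Ccl25 (-0.57). Cx3cl1, the membrane-bound chemokine fractalkine, differed by 1.07 ± 0.58 with overlapping groups. Immediate-early genes gave 28 of 38 (73.7%, beside 47.8% of all genes) lower with a median of -0.30. In 8 (21.1%, beside 9.16% of all genes) they were lower with groups that did not overlap. Among these, Zfp36, which destabilises cytokine mRNAs, read 10.44, 9.71 and 9.40 against 8.86, 9.06 and 8.86 (-0.92), and Dusp1, a MAP kinase phosphatase, 10.41, 10.20 and 10.98 against 8.74, 9.62 and 8.30 (-1.64). Egr1 and Fos overlapped between groups.

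Endothelial markers were lower in 11 of 16 (68.8%, beside 47.8% of all genes), with a median of -0.45, and did not move as 1 block. In 3 (18.8%, beside 9.16%) they were lower with groups that did not overlap. Besides Thbd and Fabp4, Cd34, a sialomucin of endothelium and progenitors, read 12.67, 9.99 and 9.33 against 6.27, 8.30 and 7.67 (-3.25 ± 1.12). Procr, the protein C receptor that works beside thrombomodulin, lay on the other side, at 10.52, 9.95 and 10.79 against 12.75, 11.63 and 11.35 (1.49 ± 0.36). None of these was called. Cd36 (5.43, 4.72 and 9.95 against 4.55, 4.91 and 4.70) and Aplnr (5.08, 4.50 and 8.02 against 6.65, 6.77 and 6.20) were highest in wild-type array 3; without it they differed by -0.36 and 1.75. In bulk arrays, fewer cells of a type and less RNA per cell cannot be told apart.

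Krt19 and Msln, markers of epithelium and mesothelium, were the members of that list with large differences. Krt19, a keratin, read 7.90, 11.63 and 12.23 in wild type, against 14.27, 13.98 and 13.70 in Ets1 null (3.39 ± 1.18). Msln, mesothelin, read 5.06, 5.90 and 10.09 against 9.91, 10.36 and 10.06 (3.1 ± 1.2). Wild-type array 3 was the highest of its group in both and reached the Ets1 null arrays in Msln; without it the differences were 4.22 and 4.63, neither called. The other 5 members on the table, Epcam, Krt5, Krt8, Upk1b and Cldn3, differed by -0.22 to 0.15, and the median of the 7 was -0.01. The part of such cells in the other differences was not tested.

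A list of endothelial genes linked to Ets1 had 18 genes on the table. In the mean 8 were higher and 10 (55.6%, beside 47.8% of all genes) lower, with a median of -0.08. None was called, and none had groups that did not overlap. Matrix genes, which include known Ets1 targets, gave no call. Of 23 matrix proteases and their inhibitors 16 (69.6%) were lower (median -0.39), beside 47.8% of all genes. Of 33 collagen and basement membrane genes 21 (63.6%) were lower (median -0.40). In 4 (17.4%) of the first list and 4 (12.1%) of the second they were lower with groups that did not overlap, beside 9.16% of all genes. Mmp3 (stromelysin 1) ranged from 8.73 to 13.79 within wild type alone, and its groups overlapped. Hspg2, perlecan, read 11.15, 10.89 and 10.32 against 10.25, 9.86 and 10.11 (-0.72 ± 0.23), and Nid1, nidogen 1, 13.41, 12.62 and 12.64 against 12.54, 11.68 and 12.17 (-0.76 ± 0.31). Both are basement membrane proteins whose groups did not overlap in the brightest probe set and did in the second, which differed by -0.52 and -0.80. Notch1, a receptor of arterial specification, read 9.71, 9.45 and 9.56 against 8.81, 8.44 and 8.63 (-0.95), with a narrow spread in both groups. Its list of Notch and arterial genes did not fall with it. Of 14 measured genes, 9 were higher and 5 lower in the mean, with a median of 0.17, and none was called. Only Notch1 and Dll1 (-1.27) had groups that did not overlap, both lower. Cell cycle genes gave 29 higher and 25 lower of 54, with a median of 0.03.

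Of the 8 ligases of the Rnf130 family on the table, the other 7 were not called, and 6 of them differed by -0.27 to 0.23. With Rnf130 itself counted, 3 (37.5%) were lower with groups that did not overlap, beside 9.16% of all genes. The list is the family of the called gene, so Rnf130 adds to this share by choice. The others were Rnf128 and Znrf3 (-0.27). Rnf128, the ligase GRAIL, read 7.94, 6.85 and 6.28 against 5.17, 4.97 and 5.16 (-1.93 ± 0.56, adjusted p = 0.442). Of 79 RING and other ubiquitin ligases on the wider list, 49 (62%, beside 47.8% of all genes) were lower (median -0.05) and none was called. Rnf19b was at 9.45, 9.46 and 9.65 against 8.18, 8.53 and 8.63 (-1.07).

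The measured genes nearest to Ets1 and to Rnf130 along their chromosomes included none that was called, and several with groups that did not overlap. Of the 20 around Ets1 on chromosome 9, 10 on each side, 4 were higher and 4 lower in that sense, beside 8.88% and 9.16% of all genes (18% in all), with a median difference of -0.02. Of the 20 around Rnf130 on chromosome 11, 6 were higher and 1 lower without overlap, beside the same shares, with a median of 0.09 and a range from -2.09 to 0.66.

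A block of neighbouring genes on chromosome 1 differed among the Ets1 null arrays. It was chosen after its values were seen, because 9 of the 14 genes called without Ets1 null array 1 lay in it. From Mdm4 to Rabif, 16 consecutive measured genes in RefSeq order, 11 lay 2-fold or more above the wild-type mean in Ets1 null array 2 and the same 11 in array 3. In array 1 only Prelp did, and the other 10 differed from the wild-type mean by -0.27 to 0.70. Mdm4, an inhibitor of p53, read 9.74, 9.30 and 8.63 in wild type, against 9.92, 11.69 and 11.32 in Ets1 null. Klhl12, a substrate adaptor of a cullin ligase, read 8.79, 8.69 and 8.92 against 8.99, 11.64 and 11.34, and Tmem183a 11.31, 11.32 and 11.34 against 11.40, 13.37 and 13.38. In these genes Ets1 null array 1 lay with or close to wild type, and arrays 2 and 3 lay above both.

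The block was set to begin and end at raised genes, so its edges are in part fixed by that choice. None of the 8 measured genes before it and none of the 8 after it was 2-fold above the wild-type mean in array 2 or 3. The 5 genes inside that did not share the difference were Sox13, Fmod, Chit1, Chil1 and Ppfia4. All 5 were dim, at 7.89 or lower in the 6 arrays. The 11 lay at 9.62 or higher in Ets1 null arrays 2 and 3, the arrays in which they were found raised. In wild type, Zbed6 (7.28, 6.98 and 6.88) and Prelp (7.87, 7.97 and 7.45) were about as dim as the 5, and the others of the 11 were brighter. Of 8 further probe sets of the 11 genes, 7 were also 2-fold or more above in both arrays. No gene of the block was 2-fold above the wild-type mean in any Ets2 null array. Prelp, the higher gene with the smallest p, therefore lies inside this block, but it was at 10.99 in Ets1 null array 1 as well.

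**Figure D4:**
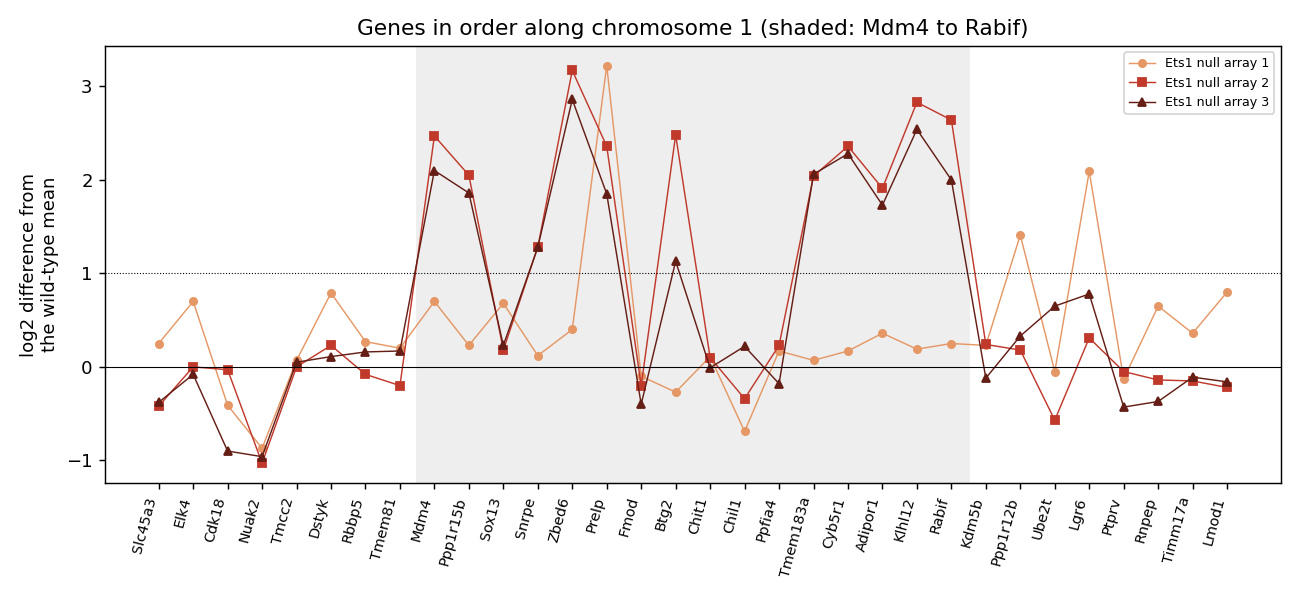
Log2 difference of each Ets1 null array from the wild-type mean (vertical axis) for measured genes in order along chromosome 1; shading marks Mdm4 to Rabif, the dotted line a 2-fold difference. Arrays 2 and 3 lie above the dotted line in 11 of the 16 shaded genes and array 1 only in Prelp.

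Whole chromosomes also differed between arrays of 1 group. For each array, the median difference over the genes of a chromosome was taken from the mean of the wild-type arrays, or of the other wild-type arrays for a wild-type array. In wild-type array 3 it ran from -0.31 on chromosome 1 to 0.40 on chromosome 15, with 0.37 on chromosome 17 and 0.30 on chromosome 2. In Ets1 null array 1 it ran from -0.25 on chromosome 4 to 0.32 on chromosome 1. The SD over chromosomes, Y left out, was 0.18 and 0.15 in these arrays, 0.08 to 0.10 in the other 4, and 0.05 to 0.06 in the Ets2 null arrays. The arrays that stood apart gene by gene were thus also those with the widest medians per chromosome; the part of this in the results was not tested.

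**Figure D5:**
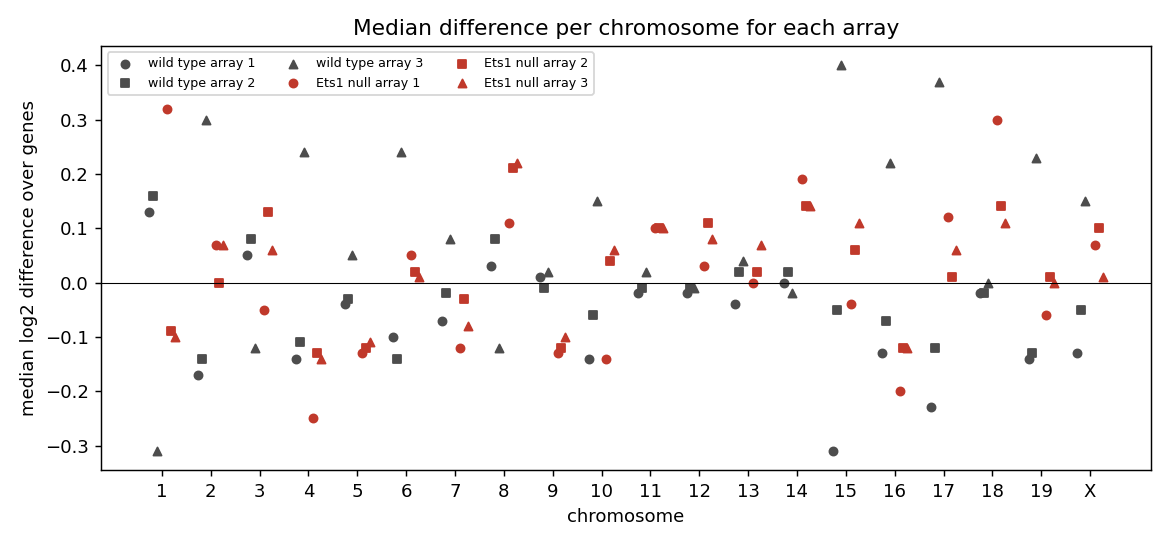
Median log2 difference over the genes of each chromosome (vertical axis; horizontal axis, chromosomes 1 to 19 and X) for the 3 wild-type (grey) and 3 Ets1 null (red) arrays, against the other wild-type arrays or the wild-type mean. Wild-type array 3 reaches 0.40 on chromosome 15 and Ets1 null array 1 0.32 on chromosome 1.

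The arrays labelled Ets1/2 null (n = 2) against Ets2 null (n = 3), all with egfp-Cre, share no array with these 6 and also differ in Ets1 genotype. They differ by sex as well: the Ets2 null arrays had the Y-linked signal (Eif2s3y at 9.30 to 10.23) and those labelled Ets1/2 null did not (3.66 and 3.63), so sex and genotype cannot be told apart there. The median over all genes was 8.71 and 8.67 in the Ets1/2 null arrays, against 9.41, 9.39 and 9.44 in Ets2 null. Differences in deposited values carry this offset. The Ets1 probe sets did not go 1 way: the brightest read 10.02 and 10.29 against 9.50, 9.55 and 9.88, and the third 6.49 and 7.05 against 8.28, 8.32 and 8.08. Rnf130 was at 8.15 and 7.87 against 11.01, 11.02 and 11.66, and it was called lower in deposited values (-3.22 ± 0.28, adjusted p = 4.45e-05) and with array medians set equal (centred values; -2.49, adjusted p = 0.000516). Of the 37 genes named above by rule from single genes or several probe sets, 18 higher and 19 lower, 4 higher (Nexn, Pkp4, Prelp and Ptpn13) and 4 lower (Grb10, Nsg1, Rnf130 and Sirpa) were called the same way in both scalings, beside 2.91% and 13.5% of all genes. As many of the 18 higher genes, 4 (Acbd4, Id2, Mtm1 and Plcd3), were called lower in both scalings, beside 13.5% of all genes. Of the 19 lower genes, 1 (Nfkbiz) was called higher, beside 2.91%. The difference between both effects was called in both scalings for 13 of the 37, beside 8.8% of all genes; the 37 were chosen for their size in 1 of these effects.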

How the data were processed

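RNA was measured on Affymetrix mouse arrays, and the deposited values are log2 levels per probe set; RMA is named per the submitters' processing notes, with its version, the build and any filter not given in the sources used here. Of 12 columns, 11 were used: the third for Ets1/2 null was the average of that group's other columns in 20521 of 20523 probe sets (within 1e-06). Probe sets with 1 symbol (18824; 549 had several, 1150 none) gave 11015 genes, 4785 with several probe sets; 18788 matched RefSeq by Entrez identifier.

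limma 3.58.1 in R 4.3.3 (lmFit, eBayes, two-sided) fitted a mean per group over 11 arrays with 7 residual degrees of freedom, and p-values were adjusted over all genes. The script was tested on simulated data. pandas 2.3.3 and matplotlib 3.10.9 made tables and plots. Genes were named by a rule: every called gene; the 12 higher and 12 lower described above; the 8 and 8 with the largest smaller difference over 2 probe sets that both separate the groups; Ets1, Ets2 and up to 4 members of each of 25 lists. Others were chosen after their values were seen. The members and lists were chosen with earlier results of these data known. Promoters are RefSeq's (GRCm38.p6). Alternatives left out each array, changed the arrays fitted, the probe set rule, the scaling and the brightness filter, and added array weights, a replicate block or a term for male arrays. The precision is limited by the number of arrays.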

Additional observations from a re-analysis of the deposited data

Results flagged for a closer look

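For 13 of the 37 genes named by rule, Ets1 null minus wild type (the first effect) differed from Ets1/2 null minus Ets2 null (the second effect). This was called by limma's contrast of both effects in deposited and in centred values, as for 8.8% of all genes. The groups of the second effect also differed by sex, by the Y-linked signal given above. Those of the first also differed in floxed Ets2 alleles, and among their arrays only wild-type array 1 had the Y-linked signal. The part of Ets1 loss therefore cannot be told apart in either. In deposited values, the second effect minus the first was -3.03 for Cdo1, -3.30 for Plcd3, -3.91 for Acbd4, -6.92 for Mtm1 and -3.62 for Id2. It was 2.28 for Angptl4, 1.82 for Ets1, 1.39 for Pdzrn3, 4.24 for Nfkbiz, 2.30 for Zc3hav1, 4.49 for Rpgrip1, 4.88 for Tmem45a and 2.22 for Sema3e. These sizes carry the lower medians of the Ets1/2 null arrays. In centred values the negative ones were smaller and the positive ones larger, as for Cdo1 (-2.26), Mtm1 (-6.15), Ets1 (2.59) and Nfkbiz (5.01). The 13 genes were named for their size in the first effect, which enters the difference, so the test is not independent of how they were chosen. Nfkbiz was lower with Ets2 intact (-1.83) and higher in Ets2 null cells (2.41), and Mtm1 was higher (3.65) and lower (-3.27). For Rnf130 the difference of effects was 0.35 ± 0.38 (adjusted p = 0.515; centred 1.12, adjusted p = 0.0756). The contrast was chosen after the data were seen.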

How the results depend on the processing

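The count of called genes depended on the arrays more than on scaling. It was 1 as reported and also 1 with centring, with quantile normalization, with the mean of probe sets, with the probe set brightest over all arrays and with a term for male arrays. That term amounts to leaving out wild-type array 1, the only array with the Y-linked signal in a group of mixed sex. Both gave Rnf130 at -3.39 with limma's adjusted p of 0.0115. Leaving out 1 array gave 1 to 35 genes and 1 to 69 probe sets: 8 genes and 22 probe sets when wild-type array 2 was left out, 35 and 69 for wild-type array 3, 14 and 22 for Ets1 null array 1, and 3 and 3 for Ets1 null array 3. With only the 6 arrays compared, limma called 0 genes and 0 probe sets (1122 and 2154 at an unadjusted p under 0.05); without the double null arrays, 6 and 3. Only brighter genes gave 3, and array weights, which gave wild-type array 3 a weight of 0.302 and Ets1 null array 2 one of 3.435, gave 222 (103 higher). Chosen after seeing the data, leaving out the double null arrays and wild-type array 3 together gave 45. The replicate block called 1 gene. With group means removed, wild-type and Ets1 null arrays of the same replicate number correlated at 0.085, 0.074 and 0.102. Those of unlike numbers ran from -0.084 to -0.011. Each array thus correlated best with its own number, but weakly. This is a hint from the data only, and the main fit did not treat the numbers as pairs. The block with only the 6 arrays, also added later, called 0 genes (1152 unadjusted), with Rnf130 at an adjusted p of 0.185. Rnf130 was called in 16 of 18 alternatives (adjusted p from 0.000331 to 0.185), with the male term and its equal fit counted separately. Its difference ran from -3.75 to -1.84, the smallest being the mean of its probe sets. None of the 53 genes followed reversed. The NF-kappaB list's median ran from -1.33 to -0.54. Of the 37 named genes, 10 were called the same way in the double null against Ets2 null, 11 when centred, and 5 to 11 with 1 array left out. In the whole 300-base promoter window, the core was in 96% of promoters and its 2 longer forms in 14.9% and 23.8%.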
